A study of Mus musculus with 24 samples.

Results

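The genes described here, 30 in number, were present in parental B16-F10 cells and at or near 0 in the triple KO (TKO), the line in which MITF, TFEB and TFE3 were all targeted. They were chosen by these levels. A gene was taken when its mean was at least 5 CPM (counts scaled to a common library size) in the 3 parental libraries and at most 0.5 CPM in the 3 TKO libraries. This gave 30 genes of the 12010 in the deposited table, or of the 9353 genes with a parental mean of at least 5 CPM. Another 7 genes passed both limits but were left out by name or family: Ifi204, Ifi44, Oasl1, Oasl2, Oas2, Lgals3 and Ngfr. The parental and TKO levels chose the genes, so they are given below as a description, without a test, and tests were run only between the 6 other KO lines. The parental and TKO libraries stayed in the fit behind these tests and shared in its estimate of each gene's spread. Standard errors and p-values of the 30 genes thus draw in part on libraries that chose them.

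B16-F10 is a melanoma line from a C57BL/6 mouse, and all cells used here (B16F10-luc2) carried a luciferase reporter and grew in DMEM with serum. The 8 lines were the parental cells (wild type for all 3 genes), a KO of each gene alone, the TFEB/TFE3 double KO (DKO), the MITF/TFE3 DKO, the MITF/TFEB DKO and the TKO. Each line gave 3 libraries, and nothing in the labels says that the 3 came from separate cultures, so the p-values measure the spread between these libraries. The MITF KO bears a frameshift, was made in earlier work and may still hold a small amount of a shortened MITF protein according to the study's blot. TFEB and TFE3 were targeted with CRISPR-Cas9 in the parental cells and in the MITF KO, so the 4 lines without MITF share an ancestor. KO cells were isolated as clones, and the effect of a KO cannot be told apart from a property of the clone in which it was made.

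MITF, TFEB and TFE3 belong to 1 family of basic helix-loop-helix leucine zipper transcription factors. They bind E-box sequences as dimers, and all recognize the core CACGTG. MITF is best known as the regulator of pigment cell identity, and TFEB and TFE3 as regulators of lysosomal and autophagy genes that are held in the cytoplasm when mTORC1 is active.

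The libraries were made from poly(A) RNA with a kit that reads the 3′ end of each transcript, and held 18300902 to 26667877 reads on genes, so that 1 read was worth 0.0364 to 0.0545 CPM. Tfeb stood at 2.06 to 5.27 CPM in the lines targeted for it and at 7.87 to 22.7 CPM in the others, and Tfe3 at 8.01 to 21.8 and 31.1 to 62.5 CPM. Mitf stood at 763 to 797 CPM in parental cells, above them at 1358 to 1470 CPM (MITF KO) and 1101 to 1268 CPM (MITF/TFE3 DKO), and below them at 544 to 603 CPM (MITF/TFEB DKO) and 326 to 350 CPM (TKO), but reads at the 3′ end do not show a frameshift. All 12 melanocyte markers looked for were in the table, and their summed level was 15975 to 17017 CPM in TKO libraries, 17330 to 19817 CPM in those of the MITF/TFEB DKO and 26864 to 41109 CPM in the libraries of the 6 other lines. The part of this difference in the results below was not tested. Most of the sum was Dct, which averaged 17751 CPM in parental cells and 13042 CPM in the TKO. Tyr averaged 131 and 8.35 CPM and Slc45a2 409 and 48.2 CPM. Sox10 was the only marker of the 12 with a higher mean in the TKO (731 and 1006 CPM). Of the immune markers only Cd68 (1 of 7) was in the table, with at most 1.74 CPM, and of the endothelial markers only Pecam1 (1 of 4), which is among the 30 genes. Col1a1 (1 of 4 fibroblast markers) reached 7.84 CPM in the MITF/TFEB DKO, and Cdh1 and Krt14 (2 of 4 epithelial markers) together 19.7 CPM in the TKO. These 2 moved in opposite directions. Krt14 averaged 0 CPM in parental cells and 17.4 CPM in the TKO, and Cdh1 1.19 and 0.532 CPM.

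In the lines that the choice did not use, the 30 genes showed many different combinations of absent, reduced and kept, as defined below. The most common combination was shared by 6 genes (Nr5a1, Nova1, Etv4, Zfp937, Tmem141 and Nfasc), and many genes had one of their own. At a limit of 0.5 CPM, most were absent in the MITF KO and in the MITF/TFEB DKO, fewer in the MITF/TFE3 DKO, and nearly all were present where MITF was intact. A gene is called absent in a line where its mean was at most 0.5 CPM, kept where it was at least 50% of the parental mean, and reduced in between. In the MITF KO 16 genes were absent, 8 reduced and 6 kept, where 0.417% of the 9353 genes with a parental mean of at least 5 CPM were at or under the same limit. In the MITF/TFEB DKO 18 were absent, 9 reduced and 3 kept, beside 0.225% of those 9353 genes. With a limit of 0.25 CPM in place of 0.5, the MITF KO had 15 absent genes and the MITF/TFEB DKO had 11. In the MITF/TFE3 DKO 9 were absent, 10 reduced and 11 kept, beside 0.139%. With MITF intact, 3 were absent in the TFE3 KO (0.0642%), 1 in the TFEB/TFE3 DKO (0.0107%) and 0 in the TFEB KO (0% of the 9353 genes), and 18, 25 and 24 were kept. The share of the 9353 genes that were kept was not counted in any line, so the kept counts have no background beside them. The median level relative to the parental mean was 3.63% (MITF KO), 4.28% (MITF/TFEB DKO) and 21.1% (MITF/TFE3 DKO), against 102% (TFEB/TFE3 DKO), 98.4% (TFEB KO) and 76.8% (TFE3 KO). Over all 9353 genes this median lay between 96.7% and 100.3% in these 6 lines. In the TKO itself it was 0.809%, with 0.396% of the 9353 genes at or under 0.5 CPM and a median over all of them of 97.4%.

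**Figure D1:**
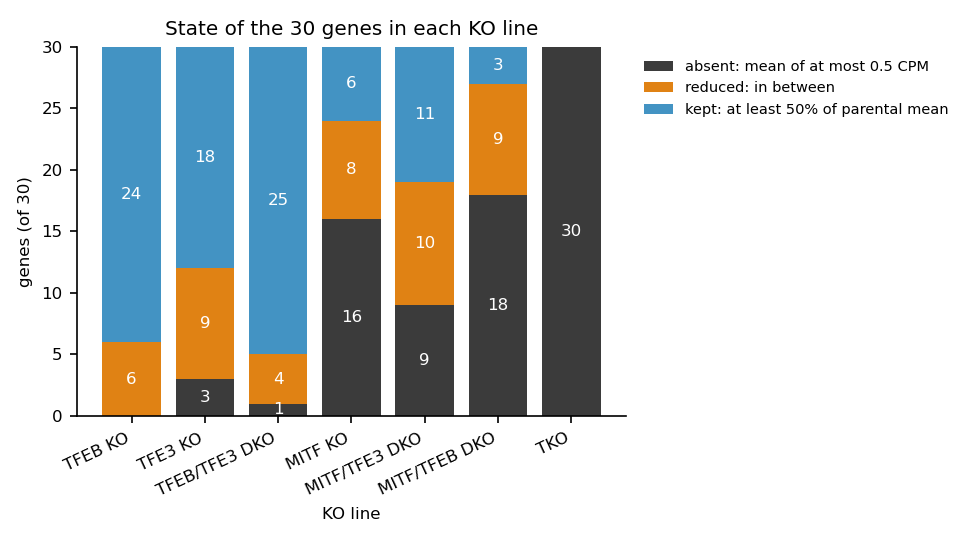
Number of the 30 genes (y axis) that were absent (mean of at most 0.5 CPM), kept (at least 50% of the parental mean) or reduced (in between) in each KO line (x axis), from the means of 3 libraries. All 30 are absent in the TKO by choice, 16 in the MITF KO and 18 in the MITF/TFEB DKO, against 0 in the TFEB KO.

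Combining the lines, 8 genes were absent in all 3 other lines without MITF, namely Nr5a1, Tuba4a, Nova1, Usp11, Etv4, Zfp937, Tmem141 and Nfasc. In all 3 KO lines with MITF 18 genes were kept, and the share of all genes kept in these lines was not counted. In none of the 6 lines were 7 genes absent, namely Fam111a, Npnt, Prss12, F11r, Slc37a1, Megf6 and Slc2a4. Of the MITF KO and the MITF/TFEB DKO, only the latter had 7 genes absent (Fscn1, Hoxa11, Ly6g5c, Hoxa11os, Adgre5, Mest and Ksr1), and only the former 5 (Iigp1, Gm4951, Tgtp2, Defb25 and Zbp1). In the TKO, 7 genes had 0 reads in all 3 libraries (Fam111a, Gm4951, Ccdc8, Tuba4a, Ly6g5c, Nova1 and Tgtp2), and 13 had at most 3 reads in any library.

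**Figure D2:**
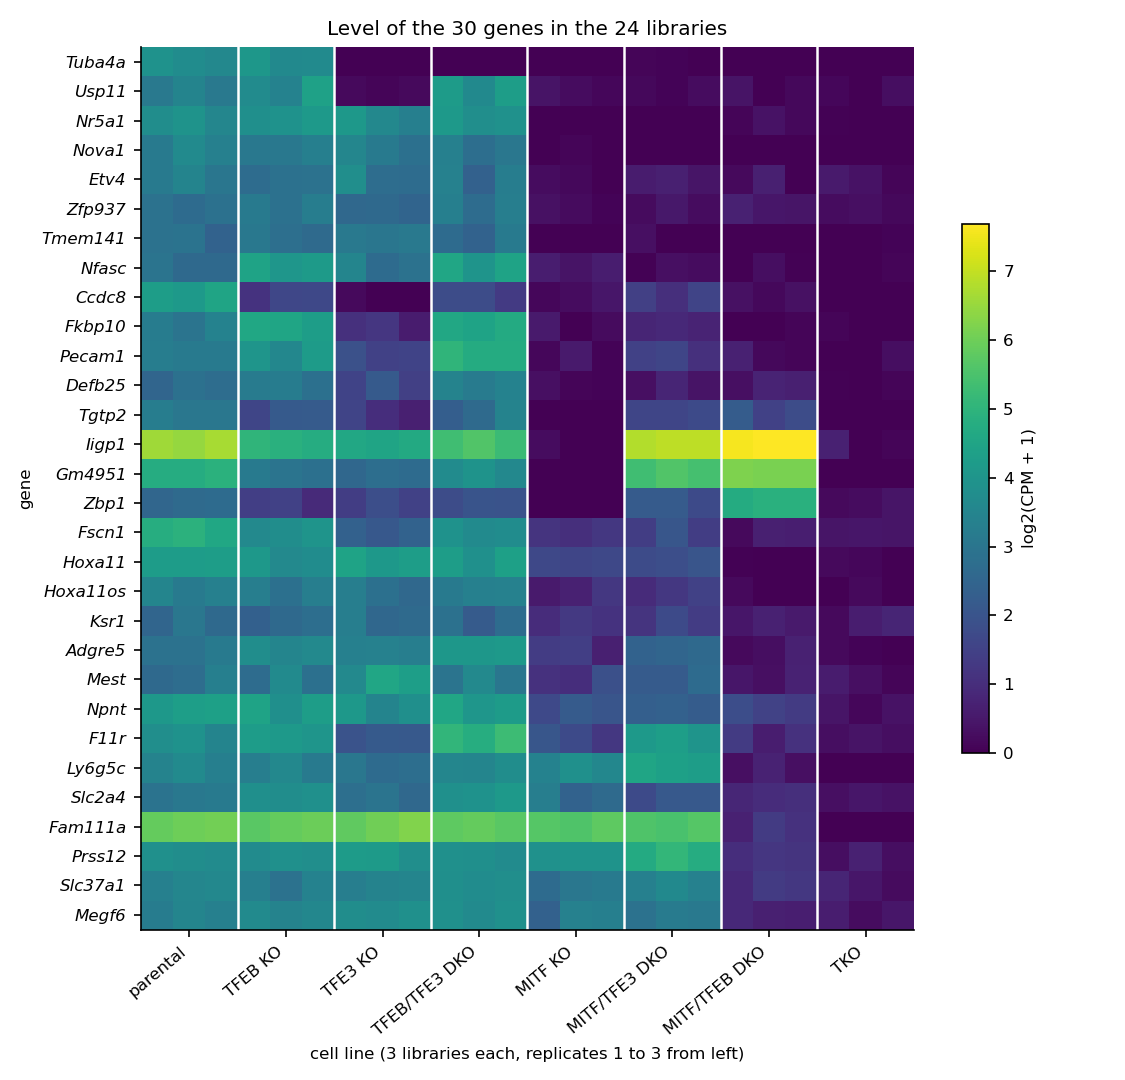
Level of the 30 genes (y axis) in the 24 libraries (x axis, 3 per line) as log2(CPM + 1), from 0 (dark) to above 7 (light), with genes ordered by whether they were absent, reduced or kept in the lines without MITF. The upper block is dark in all lines without MITF, and the lowest block turns dark only in the MITF/TFEB DKO and TKO. Iigp1 and Gm4951 are dark in the MITF KO and TKO but light in the double KOs between them. Zbp1 is dark in the same lines and lighter in the MITF/TFEB DKO (mean of 27.6 CPM) than in the MITF/TFE3 DKO (3.19 CPM).

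The limits set who is counted. Just inside the parental limit were Zbp1 (5.18 CPM) and Defb25 (5.56 CPM), and just outside it Kcnmb4 (4.91 CPM in parental cells, 0 in the TKO) and Tmie (4.80 CPM, 0.0872 in the TKO). Just inside the TKO limit were Ksr1 (0.467 CPM) and Slc37a1 (0.427 CPM), and just outside it 1700019D03Rik (8.03 CPM in parental cells, 0.553 in the TKO). By library, Kcnmb4 stood at 4.66, 4.96 and 5.12 CPM in parental cells, Tmie at 4.27, 5.23 and 4.90 CPM there, and 1700019D03Rik at 0.401, 0.571 and 0.688 CPM in the TKO. When the rule was applied to 2 replicates and read in the one left aside, 34, 30 and 30 genes were chosen without replicates 1, 2 and 3, and 23, 28 and 27 of them met both limits in that replicate. In each case 29 of the 30 genes were chosen.

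Promoter sequences from RefSeq (build GRCm38.p6, 300 bases each, most of them before a transcript start) were matched by symbol for 20 of the 30 genes. They were searched on both strands for TCACGTGA, for CACGTG, which TCACGTGA contains, and for CATGTG. None of the 20 held TCACGTGA or CACGTG, which stood in 2.50% and 12.3% of the promoters of genes with a parental mean of at least 5 CPM and in 1.13% and 8.09% of those of all genes in the reference table. CATGTG stood in 2 of the 20 (10% of them, beside 9.61% and 15.9%), Hoxa11 and Mest, which are printed with that motif, read here as its reverse complement, in capitals. A match is a description of the letters, and no match says only that they were not in this window.
Hoxa11 (chr6:52245761-52246060, - strand): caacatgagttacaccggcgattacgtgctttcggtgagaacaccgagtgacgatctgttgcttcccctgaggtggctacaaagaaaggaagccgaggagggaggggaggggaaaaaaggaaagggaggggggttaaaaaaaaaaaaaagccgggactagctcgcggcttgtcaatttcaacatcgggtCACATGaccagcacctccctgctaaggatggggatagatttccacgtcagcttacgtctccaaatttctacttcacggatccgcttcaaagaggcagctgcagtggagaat
Mest (chr6:30737800-30738099, + strand): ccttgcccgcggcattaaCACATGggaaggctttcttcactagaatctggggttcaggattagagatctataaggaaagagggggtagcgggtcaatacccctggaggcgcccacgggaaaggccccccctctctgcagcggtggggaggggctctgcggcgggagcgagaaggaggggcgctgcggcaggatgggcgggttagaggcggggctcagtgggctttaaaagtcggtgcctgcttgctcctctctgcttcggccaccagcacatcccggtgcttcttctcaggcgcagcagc
At least 10 CG steps, the sites of DNA methylation, stood in the promoters of 14 of the 20 genes (70%), beside 91.6% of genes with a parental mean of at least 5 CPM and 45.8% of all genes in the reference table, and these differences were not tested. The promoters of Fam111a, the most abundant of the genes kept in the MITF KO, of Ly6g5c, also kept there and absent in the MITF/TFEB DKO, and of Tuba4a, absent in 6 KO lines, hold 12, 4 and 24 CG steps and are printed with these in capitals.
Fam111a (chr19:12573260-12573559, + strand): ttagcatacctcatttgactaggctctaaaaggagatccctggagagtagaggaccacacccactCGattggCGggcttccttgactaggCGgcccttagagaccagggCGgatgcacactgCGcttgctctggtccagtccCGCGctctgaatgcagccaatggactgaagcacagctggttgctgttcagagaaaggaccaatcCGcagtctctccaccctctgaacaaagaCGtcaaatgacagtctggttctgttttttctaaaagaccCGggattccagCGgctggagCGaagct
Ly6g5c (chr17:35108044-35108343, + strand): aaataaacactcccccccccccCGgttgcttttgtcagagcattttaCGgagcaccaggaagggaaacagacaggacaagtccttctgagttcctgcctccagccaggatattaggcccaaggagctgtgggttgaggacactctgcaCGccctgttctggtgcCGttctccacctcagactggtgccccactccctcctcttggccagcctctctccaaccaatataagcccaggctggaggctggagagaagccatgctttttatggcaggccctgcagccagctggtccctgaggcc
Tuba4a (chr1:75219245-75219544, - strand): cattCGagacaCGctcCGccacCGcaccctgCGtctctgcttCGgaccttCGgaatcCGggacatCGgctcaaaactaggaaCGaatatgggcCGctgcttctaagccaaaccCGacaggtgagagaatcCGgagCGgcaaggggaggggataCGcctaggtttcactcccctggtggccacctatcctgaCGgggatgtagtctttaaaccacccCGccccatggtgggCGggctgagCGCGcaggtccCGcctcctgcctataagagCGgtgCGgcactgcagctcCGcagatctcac

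Between the 6 lines that did not choose the genes, 7 contrasts were tested with limma on log2(CPM + 1) over all 12010 genes. Calls needed a difference of 1 or more on the log2 scale (a fold of 2) and an unadjusted p under 0.05, and every call among the 30 genes also had a Benjamini-Hochberg adjusted p under 0.05. Differences are on the log2(CPM + 1) scale, which shrinks changes of genes that have few reads. All 30 genes were tested in every contrast, and the percent of all genes called is given beside each count at this threshold. Counts at any fold, with edgeR or with another pseudocount have no such share. The percents given are not a background for them.

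Loss of MITF was compared with loss of both relatives in the MITF KO against the TFEB/TFE3 DKO. The TKO, whose low levels chose the genes, shares an ancestor with the other lines without MITF. The choice thus favours genes that are low in those lines, and the directions below are not independent of it. Of the 30 genes, 24 were lower in the MITF KO (3.30% of all genes were) and 0 higher (3.07% of all genes), with 0 also at an unadjusted p under 0.05 at any fold and 0 by edgeR. The 6 not called were Fam111a, Prss12, Tuba4a, Ly6g5c, Slc37a1 and Megf6. The median difference was -2.70 on the log2 scale against 0.0043 over all genes. When the 3 lines without MITF were set against the 3 KO lines with it, 22 genes were lower (2.28% of all genes) and 0 higher (3.83% of all genes), with 2 higher at an unadjusted p under 0.05 at any fold and 0 by edgeR, and a median of -2.11 against 0.011 over all genes. This contrast averages unlike lines, and libraries of its sides overlapped for the called genes Fam111a, Tuba4a, F11r, Usp11, Fkbp10, Pecam1 and Slc2a4. Fam111a was kept in the MITF KO and MITF/TFE3 DKO, and Tuba4a was also absent in the TFE3 KO and TFEB/TFE3 DKO.

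Where MITF was lost, the added loss of TFE3 was compared with the added loss of TFEB. In the MITF/TFE3 DKO, 9 genes rose against the MITF KO (3.39% of all genes) and 0 fell (1.67%), with 1 lower at an unadjusted p under 0.05 at any fold and 2 by edgeR. The 9 were Iigp1, Gm4951, Ccdc8, F11r, Pecam1, Tgtp2, Adgre5, Mest and Zbp1, and the count was 3 with a pseudocount of 5 and 14 with edgeR. In the MITF/TFEB DKO, 4 rose against the MITF KO (6.91% of all genes), Iigp1, Gm4951, Tgtp2 and Zbp1, and 7 fell (3.99%), Fam111a, Hoxa11, Prss12, Ly6g5c, Slc37a1, Megf6 and Slc2a4. The rises numbered 7 with edgeR, and the falls 12 with a pseudocount of 0.25, 4 with a pseudocount of 5 and 15 with edgeR. Between the DKOs themselves, 14 genes were lower in the MITF/TFEB DKO than in the MITF/TFE3 DKO (4.05% of all genes) and 1, Zbp1, was higher (5.70%). With a pseudocount of 5 the 14 became 6.

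With MITF intact, the TFEB/TFE3 DKO was compared with each single KO. The TFEB/TFE3 DKO held 11 genes at higher levels than the TFE3 KO (1.70% of all genes) and 0 at lower levels (1.17%), with 1 lower at an unadjusted p under 0.05 at any fold and 1 by edgeR. The 11 were Gm4951, Fscn1, Ccdc8, F11r, Usp11, Fkbp10, Pecam1, Tgtp2, Slc2a4, Nfasc and Defb25, and their number was 4 with a pseudocount of 5. Against the TFEB KO it held 1 gene lower, Tuba4a (0.0416% of all genes), and 0 higher (0.150%). At an unadjusted p under 0.05 at any fold 9 were higher, and 1 by edgeR, and the share of all genes at these thresholds was not counted.

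**Figure D3:**
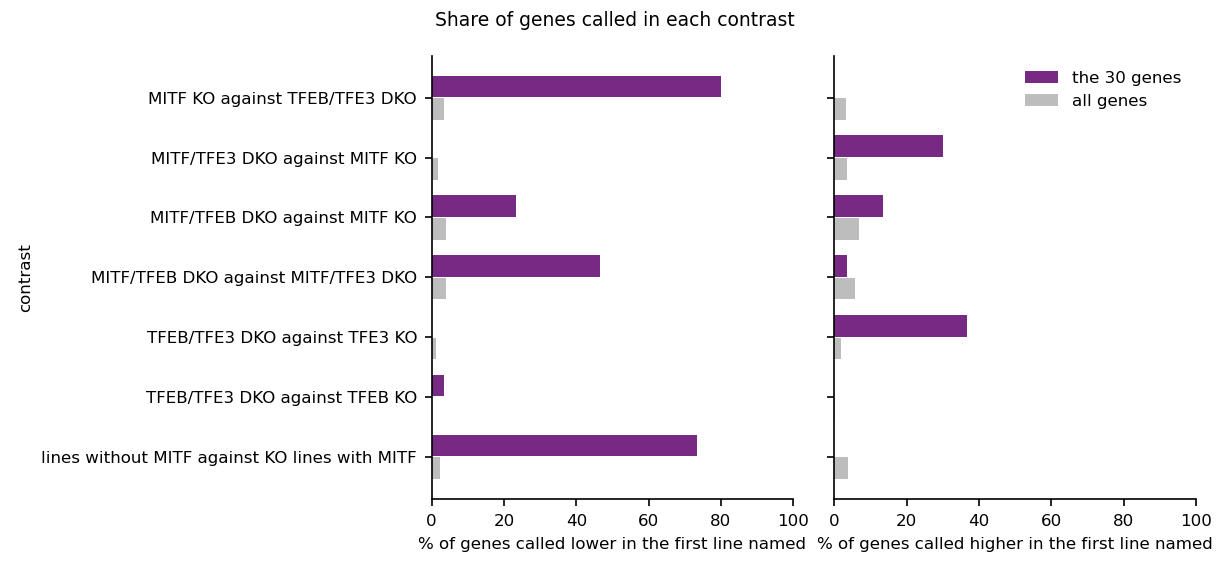
Percent (x axis) of the 30 genes and of all 12010 genes called lower (left) or higher (right) in the first line named of each of the 7 contrasts (y axis), by limma with a difference of 1 or more on the log2 scale and p under 0.05. Of the 30 genes, 80% were lower in the MITF KO than in the TFEB/TFE3 DKO, beside 3.30% of all genes.

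Among the genes of transcription and RNA control, Nr5a1 encodes the nuclear receptor SF-1, which acts in gonad and adrenal development (chromosome 2, 38581468 to 38604642 in mm39, GENCODE vM39, as for all positions below). Nr5a1 stood at 12.7, 14.5 and 10.5 CPM in parental cells, 13.2, 14 and 17.1 in TFEB KO libraries, 16, 11.2 and 9.01 in TFE3 KO libraries and 16.8, 13.1 and 14 in TFEB/TFE3 DKO libraries. Without MITF, Nr5a1 stood at 0 CPM in all MITF KO libraries, 0 in all MITF/TFE3 DKO libraries, 0.0784, 0.294 and 0.119 in MITF/TFEB DKO libraries and 0.0364, 0 and 0 in TKO libraries. The lines with MITF lay at 9.01 CPM or above and those without it at 0.294 CPM or below, with no overlap. Against the TFEB/TFE3 DKO, where it averaged 14.6 ± 1.98 CPM (SD, n = 3), the level in the MITF KO was at least 89.4-fold lower, counted against a floor of 3 reads per library (-3.96 ± 0.16 (SE), adjusted p = 3.9e-15).

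Nova1 encodes a neuronal RNA-binding protein that guides splicing (chromosome 12, 46741300 to 46866286). Nova1 stood at 8.07, 11.8 and 9.26 CPM in parental cells, 7.51, 7.54 and 9.02 in TFEB KO libraries, 10.6, 7.88 and 6.11 in TFE3 KO libraries and 9.1, 5.8 and 7.29 in TFEB/TFE3 DKO libraries. Without MITF, Nova1 stood at 0, 0.0803 and 0 CPM in MITF KO libraries, 0 in all MITF/TFE3 DKO libraries, 0 in all MITF/TFEB DKO libraries and 0 in all TKO libraries. Among the 12 libraries without MITF, 1 held any read of it, and the libraries with MITF did not overlap with these. Lines without MITF differed from KO lines with it by -3.12 ± 0.10 (SE), adjusted p = 1.0e-17.

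Etv4 encodes an ETS-family transcription factor that acts downstream of growth factor signals (chromosome 11, 101660568 to 101676197). Etv4 stood at 7.89, 10.1 and 7.15 CPM in parental cells, 5.59, 6.31 and 6.48 in TFEB KO libraries, 12.8, 5.71 and 5.55 in TFE3 KO libraries and 9.38, 4.25 and 8.53 in TFEB/TFE3 DKO libraries. Without MITF, Etv4 stood at 0.188, 0.120 and 0 CPM in MITF KO libraries, 0.498, 0.612 and 0.366 in MITF/TFE3 DKO libraries, 0.157, 0.588 and 0 in MITF/TFEB DKO libraries and 0.474, 0.285 and 0.0860 in TKO libraries. Its replicates spread widely where MITF was intact, from 4.25 to 12.8 CPM, but all lay above the libraries without MITF, which reached 0.612 CPM. Lines without MITF differed from KO lines with it by -2.64 ± 0.15 (SE), adjusted p = 3.5e-13, and the double KOs did not pass the test against the MITF KO (0.44 and 0.15 on the log2 scale).

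Zfp937, a zinc finger protein gene (chromosome 2, 150059993 to 150086798), averaged 6.13 ± 0.550 CPM (SD, n = 3) in parental cells and lay between 4.53 and 8.94 CPM in the KO lines with MITF. It lay between 0.0545 and 0.627 CPM in the lines without MITF other than the TKO, again without overlap (-2.56 ± 0.09 (SE), adjusted p = 1.4e-16).

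Hoxa11, a homeobox factor that patterns limbs and the reproductive tract, and Hoxa11os, the long non-coding RNA from its opposite strand, overlap on chromosome 6 (52219074 to 52222806 and 52220356 to 52226784). The Hoxa11 promoter with its CATGTG is printed above. Hoxa11 stood at 18.1, 18 and 18.3 CPM in parental cells, 16.4, 11.3 and 12.3 in TFEB KO libraries, 21.2, 16.1 and 18.4 in TFE3 KO libraries and 18.5, 13.6 and 19.8 in TFEB/TFE3 DKO libraries. Without MITF, Hoxa11 stood at 2.17, 2.05 and 2.18 CPM in MITF KO libraries, 2.37, 2.59 and 3.06 in MITF/TFE3 DKO libraries, 0.0392, 0 and 0 in MITF/TFEB DKO libraries and 0.146, 0.0951 and 0 in TKO libraries. It was intermediate in the MITF KO and MITF/TFE3 DKO, at 11.8% and 14.8% of the parental mean, and nearly without reads in the MITF/TFEB DKO and TKO. The fall from MITF KO to MITF/TFEB DKO passed the test (-1.63 ± 0.15 (SE), adjusted p = 4.2e-09), and so did the difference between the MITF KO and the TFEB/TFE3 DKO (-2.53 ± 0.15 (SE), adjusted p = 2.3e-12).

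Hoxa11os stood at 10.3, 7.82 and 9.17 CPM in parental cells, 8.79, 6.21 and 8.84 in TFEB KO libraries, 8.73, 6.15 and 5.04 in TFE3 KO libraries and 7.86, 9.28 and 9.43 in TFEB/TFE3 DKO libraries. Without MITF, Hoxa11os stood at 0.471, 0.643 and 1.36 CPM in MITF KO libraries, 0.913, 1.37 and 1.78 in MITF/TFE3 DKO libraries, 0.157, 0 and 0 in MITF/TFEB DKO libraries and 0, 0.143 and 0 in TKO libraries. It followed the order of Hoxa11, with the MITF KO and MITF/TFE3 DKO below all libraries with MITF and above all of those of the MITF/TFEB DKO and TKO. Its difference between MITF/TFEB DKO and MITF KO was -0.77 ± 0.19 (SE), adjusted p = 0.0024, under the size needed for a call on the log2(CPM + 1) scale although the means were 0.0523 and 0.825 CPM and the libraries did not overlap, while that against the MITF/TFE3 DKO was called (-1.15 ± 0.19 (SE), adjusted p = 4.0e-05). Whether reads were counted by strand is not given in the sources used here. The last 500 bases of Hoxa11 and of Hoxa11os overlap no exon of the other gene. Reads at these 3′ ends would fall in separate places, but where the reads lay was not examined. The last 500 bases of Hoxa11os overlap Gm56041 on the same strand. The neighbours Hoxa10 and Hoxa9, chosen after their values were seen, averaged 38.1 and 6.34 CPM in parental cells and 22.2 and 5.53 CPM in the TKO.

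Among the 30 were several genes known to be induced by interferon. Iigp1 and Gm4951 are immunity-related GTPase genes, whose products act against intracellular parasites, and Tgtp2 is a T-cell specific GTPase gene of the same superfamily. Zbp1 encodes a sensor of left-handed nucleic acid that triggers cell death. Iigp1 (chromosome 18, 60506680 to 60525706) stood at 94.9, 89 and 101 CPM in parental cells, 31.6, 28.4 and 26 in TFEB KO libraries, 23.7, 21.3 and 24.8 in TFE3 KO libraries and 39.4, 47.8 and 36.8 in TFEB/TFE3 DKO libraries. Without MITF, Iigp1 stood at 0.188, 0 and 0 CPM in MITF KO libraries, 110.1, 120.1 and 119.8 in MITF/TFE3 DKO libraries, 192, 206 and 206 in MITF/TFEB DKO libraries and 0.619, 0 and 0.0860 in TKO libraries. It was the most abundant of the 30 genes, was nearly without reads in the MITF KO and TKO, and was above all parental libraries in both double KOs that contained the MITF KO. The rise from the MITF KO was 6.79 ± 0.14 (SE), adjusted p = 3.5e-21 in the MITF/TFE3 DKO and 7.58 ± 0.14 (SE), adjusted p = 3.4e-22 in the MITF/TFEB DKO. In the KO lines with MITF it averaged 43.5% (TFEB/TFE3 DKO), 30.1% (TFEB KO) and 24.5% (TFE3 KO) of the parental mean.

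Gm4951 repeated this order at a lower level. Gm4951 stood at 25.9, 25.9 and 29.2 CPM in parental cells, 7.77, 6.76 and 6.11 in TFEB KO libraries, 4.99, 5.89 and 5.41 in TFE3 KO libraries and 12.1, 14.6 and 11.1 in TFEB/TFE3 DKO libraries. Without MITF, Gm4951 stood at 0 CPM in all MITF KO libraries, 39.1, 47.4 and 42.2 in MITF/TFE3 DKO libraries, 72.7, 69.3 and 70 in MITF/TFEB DKO libraries and 0 in all TKO libraries. Against the MITF KO, with 0 reads, it was at least 262-fold higher in the MITF/TFE3 DKO (adjusted p = 9.6e-21) and at least 432-fold higher in the MITF/TFEB DKO (adjusted p = 5.9e-22), counted against 3 reads per library. The symbol Gm4951 was not found in the annotation, so no position is given.

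Tgtp2 (chromosome 11, 48948021 to 48955033) stood at 8.67, 7.32 and 7.24 CPM in parental cells, 2.02, 3.52 and 3.61 in TFEB KO libraries, 2.0, 0.995 and 0.607 in TFE3 KO libraries and 3.91, 5.37 and 9.91 in TFEB/TFE3 DKO libraries. Without MITF, Tgtp2 stood at 0 CPM in all MITF KO libraries, 2.08, 2.07 and 2.33 in MITF/TFE3 DKO libraries, 3.76, 1.8 and 2.43 in MITF/TFEB DKO libraries and 0 in all TKO libraries. Its rise in the MITF/TFE3 DKO was at least 13.2-fold (adjusted p = 2.0e-05) and in the MITF/TFEB DKO at least 16.3-fold (adjusted p = 1.7e-06), and both stayed below every parental library. Reads may be shared between near-identical copies, and Tgtp1, its neighbour in the family, averaged 1.15 CPM in parental cells and had 0 reads in the MITF KO and TKO.

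Zbp1 (chromosome 2, 173033815 to 173060724) stood at 4.79, 5.28 and 5.48 CPM in parental cells, 1.7, 1.78 and 0.879 in TFEB KO libraries, 1.65, 2.6 and 1.82 in TFE3 KO libraries and 2.44, 3.0 and 2.91 in TFEB/TFE3 DKO libraries. Without MITF, Zbp1 stood at 0 CPM in all MITF KO libraries, 3.61, 3.63 and 2.33 in MITF/TFE3 DKO libraries, 25.7, 28.3 and 28.8 in MITF/TFEB DKO libraries and 0.146, 0.190 and 0.344 in TKO libraries. It differed from the other interferon targets in that the MITF/TFEB DKO held 533% of the parental mean and the MITF/TFE3 DKO 61.6%, a difference of 2.79 ± 0.16 (SE), adjusted p = 2.9e-12. Further interferon-inducible GTPase genes outside the 30, chosen after their values were seen, averaged 76.3 CPM (Igtp), 57.4 CPM (Irgm1), 27.1 CPM (Irgm2) and 41.8 CPM (Ifi47) in parental cells. In the same order, the MITF KO means were 0.268, 2.73, 0.380 and 0.759 CPM, and those of the TKO 3.53, 2.83, 2.81 and 1.10 CPM. In the MITF/TFEB DKO they were 186, 36.4, 56.1 and 11.4 CPM.

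**Figure D4:**
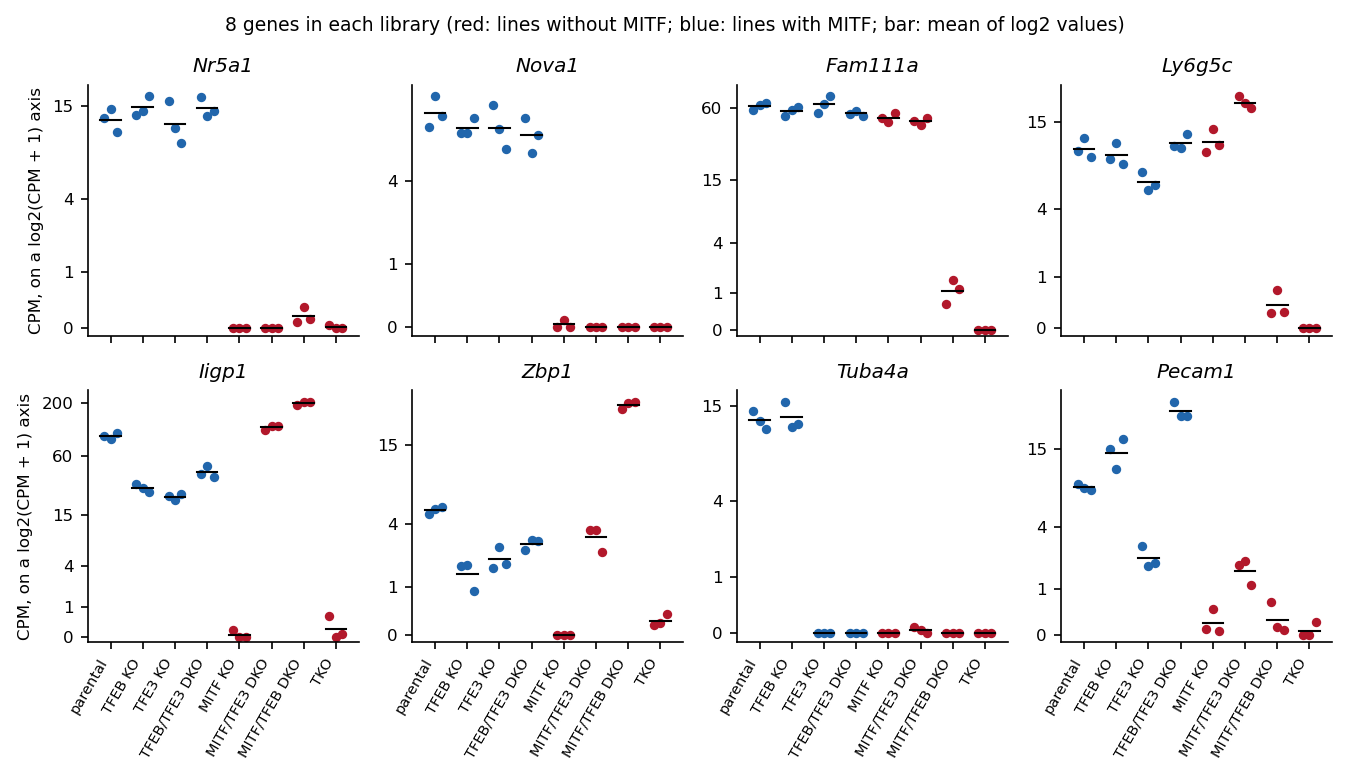
CPM of 8 of the genes in each of the 24 libraries, on a log2(CPM + 1) axis (y) by cell line (x), with lines without MITF in red, lines with MITF in blue and a bar at the mean of the log2 values. Nr5a1 and Nova1 are near 0 in every line without MITF, Fam111a and Ly6g5c only in the MITF/TFEB DKO and TKO, Iigp1 and Zbp1 only in the MITF KO and TKO, and Tuba4a in 6 of the 7 KO lines.

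Of the genes of the cell surface, matrix and cytoskeleton, Pecam1 encodes an adhesion molecule of endothelial cells and platelets (chromosome 11, 106543689 to 106641454), and the other endothelial markers looked for were not in the table. Pecam1 stood at 8.59, 8.0 and 7.73 CPM in parental cells, 15.1, 10.9 and 17.6 in TFEB KO libraries, 2.79, 1.82 and 1.91 in TFE3 KO libraries and 31.6, 25.5 and 25.5 in TFEB/TFE3 DKO libraries. Without MITF, Pecam1 stood at 0.0941, 0.482 and 0.0545 CPM in MITF KO libraries, 1.83, 2.03 and 1.1 in MITF/TFE3 DKO libraries, 0.627, 0.126 and 0.0796 in MITF/TFEB DKO libraries and 0, 0 and 0.215 in TKO libraries. The TFEB/TFE3 DKO lay above all parental libraries and the TFE3 KO below them, and they differed by 3.17 ± 0.20 (SE), adjusted p = 8.5e-11. The rise from the MITF KO to the MITF/TFE3 DKO passed the test (1.13 ± 0.20 (SE), adjusted p = 1.3e-04), and the MITF/TFEB DKO lay below the MITF/TFE3 DKO (-1.06 ± 0.20 (SE), adjusted p = 1.2e-04).

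F11r encodes the junctional adhesion molecule JAM-A (chromosome 1, 171265092 to 171292958). F11r stood at 13, 14 and 9.98 CPM in parental cells, 17.9, 17.1 and 15.1 in TFEB KO libraries, 2.89, 3.55 and 3.45 in TFE3 KO libraries and 32.4, 26.7 and 37.5 in TFEB/TFE3 DKO libraries. Without MITF, F11r stood at 3.2, 2.33 and 1.36 CPM in MITF KO libraries, 16.9, 18.8 and 14.9 in MITF/TFE3 DKO libraries, 1.53, 0.546 and 1.16 in MITF/TFEB DKO libraries and 0.219, 0.333 and 0.215 in TKO libraries. The MITF/TFE3 DKO was at 137% of the parental mean where the MITF KO was at 18.6%, a rise of 2.47 ± 0.19 (SE), adjusted p = 9.6e-10, and the MITF/TFEB DKO was lower than the MITF/TFE3 DKO (-3.13 ± 0.19 (SE), adjusted p = 8.0e-12). In lines with MITF, the TFE3 KO was low and the TFEB/TFE3 DKO was above every parental library (2.94 ± 0.19 (SE), adjusted p = 2.3e-10).

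Npnt encodes nephronectin, a matrix protein that binds integrins (chromosome 3, 132587506 to 132656257). Npnt stood at 16.4, 18.9 and 19.8 CPM in parental cells, 21.2, 13.4 and 18.5 in TFEB KO libraries, 16.2, 10.1 and 13.3 in TFE3 KO libraries and 22.7, 15.5 and 17.6 in TFEB/TFE3 DKO libraries. Without MITF, Npnt stood at 2.21, 3.62 and 3.05 CPM in MITF KO libraries, 4.07, 4.19 and 3.75 in MITF/TFE3 DKO libraries, 2.55, 1.89 and 1.55 in MITF/TFEB DKO libraries and 0.364, 0.0951 and 0.301 in TKO libraries. The libraries with MITF lay at 10.1 CPM or above, and those of the MITF KO and its double KOs between 1.55 and 4.19 CPM (-2.14 ± 0.11 (SE), adjusted p = 7.0e-14). Neither double KO was called against the MITF KO (0.35 and -0.40 on the log2 scale).

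Megf6 encodes a protein with many EGF-like repeats (chromosome 4, 154255166 to 154360718). Megf6 stood at 8.41, 10.3 and 9.26 CPM in parental cells, 11.9, 9.82 and 10.9 in TFEB KO libraries, 12.6, 12.1 and 13.5 in TFE3 KO libraries and 13.5, 11.8 and 13.7 in TFEB/TFE3 DKO libraries. Without MITF, Megf6 stood at 4.28, 9.52 and 8.99 CPM in MITF KO libraries, 6.39, 8.2 and 7.68 in MITF/TFE3 DKO libraries, 0.863, 0.588 and 0.557 in MITF/TFEB DKO libraries and 0.546, 0.190 and 0.387 in TKO libraries. The first MITF KO library lay below the other MITF KO libraries, but all 3 lay above every library of the MITF/TFEB DKO (-2.31 ± 0.19 (SE), adjusted p = 6.6e-10). The MITF/TFE3 DKO gave a difference of 0.03 from the MITF KO, with overlapping libraries.

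Fscn1 encodes fascin, which bundles actin in cell protrusions (chromosome 5, 142946098 to 142958953). Fscn1 stood at 26.8, 29.9 and 23 CPM in parental cells, 11.3, 12.5 and 14.8 in TFEB KO libraries, 4.19, 3.33 and 4.39 in TFE3 KO libraries and 14.1, 11.9 and 12.3 in TFEB/TFE3 DKO libraries. Without MITF, Fscn1 stood at 1.22, 1.04 and 1.36 CPM in MITF KO libraries, 1.62, 3.16 and 1.65 in MITF/TFE3 DKO libraries, 0.157, 0.588 and 0.557 in MITF/TFEB DKO libraries and 0.364, 0.380 and 0.344 in TKO libraries. It was below the parental libraries in every KO line, with the TFEB KO and TFEB/TFE3 DKO at 48.6% and 48.2% of the parental mean and the TFE3 KO at 14.9%. The TFEB/TFE3 DKO lay above the TFE3 KO (1.48 ± 0.17 (SE), adjusted p = 1.7e-06) and above the MITF KO (-2.64 for the MITF KO against it).

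Tuba4a encodes an alpha-tubulin of microtubules (chromosome 1, 75189219 to 75196566). Tuba4a stood at 14.1, 12.4 and 11.2 CPM in parental cells, 15.9, 11.5 and 11.9 in TFEB KO libraries, 0 in all TFE3 KO libraries and 0 in all TFEB/TFE3 DKO libraries. Without MITF, Tuba4a stood at 0 CPM in all MITF KO libraries, 0.0830, 0.0471 and 0 in MITF/TFE3 DKO libraries, 0 in all MITF/TFEB DKO libraries and 0 in all TKO libraries. It was present only in parental cells and the TFEB KO, and the other 18 libraries held at most 2 reads each. The TFEB/TFE3 DKO, with 0 reads, was at least 90.3-fold lower than the TFEB KO (adjusted p = 1.6e-15). Its last exon overlaps Stk16 on the opposite strand, which stood at 66.1 CPM in parental cells and 79.7 CPM in the TKO. Other alpha-tubulin genes, chosen after their values were seen, were abundant in the TKO (Tuba1a 1591 CPM, Tuba1b 3628 CPM).

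Ly6g5c encodes a small protein of the Ly6 family, encoded within the major histocompatibility region (chromosome 17, 35327157 to 35331151). Ly6g5c stood at 9.88, 11.9 and 9.03 CPM in parental cells, 8.79, 11.2 and 8.1 in TFEB KO libraries, 7.23, 5.45 and 5.88 in TFE3 KO libraries and 10.6, 10.4 and 12.6 in TFEB/TFE3 DKO libraries. Without MITF, Ly6g5c stood at 9.74, 13.6 and 10.7 CPM in MITF KO libraries, 21.8, 19.7 and 18.3 in MITF/TFE3 DKO libraries, 0.235, 0.672 and 0.239 in MITF/TFEB DKO libraries and 0 in all TKO libraries. The MITF KO libraries overlapped those of parental cells, while the MITF/TFEB DKO lay far below both. Its difference from the MITF KO was -3.16 ± 0.16 (SE), adjusted p = 7.0e-14, and that from parental cells was not tested. The MITF/TFE3 DKO lay above all MITF KO libraries, without a call (0.77 ± 0.16 (SE), adjusted p = 6.2e-04).

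Adgre5, the gene of the adhesion receptor CD97 (chromosome 8, 84446992 to 84467955), stood at 6.51, 6.5 and 7.73 CPM in parental cells, 12.8, 10.4 and 11.4 in TFEB KO libraries, 9.23, 9.52 and 8.82 in TFE3 KO libraries and 15.8, 15.8 and 17 in TFEB/TFE3 DKO libraries. Without MITF, Adgre5 stood at 1.55, 1.69 and 0.599 CPM in MITF KO libraries, 4.32, 4.66 and 5.21 in MITF/TFE3 DKO libraries, 0.157, 0.210 and 0.637 in MITF/TFEB DKO libraries and 0.146, 0.0476 and 0 in TKO libraries. The MITF/TFE3 DKO lay above the MITF KO (1.36 ± 0.17 (SE), adjusted p = 1.6e-06) and the MITF/TFEB DKO averaged 0.335 CPM against 1.28 CPM in the MITF KO, with overlapping libraries and a difference that was not called on the log2(CPM + 1) scale (-0.75). Nfasc, which encodes the neuronal adhesion protein neurofascin (chromosome 1, 132492428 to 132669564), lay between 14.7 and 22.7 CPM in the TFEB KO and TFEB/TFE3 DKO and between 5.14 and 6.82 CPM in parental cells. In the lines without MITF, Nfasc reached at most 0.545 CPM, and it differed between lines without and with MITF by -3.58 ± 0.11 (SE), adjusted p = 6.7e-18.

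Among enzymes and their regulators, Fam111a encodes a serine protease that restricts certain viruses (chromosome 19, 12523104 to 12567134). Fam111a stood at 57.6, 63.2 and 65.4 CPM in parental cells, 51.7, 58.2 and 61.4 in TFEB KO libraries, 54.9, 64.6 and 75 in TFE3 KO libraries and 53.9, 57.2 and 52 in TFEB/TFE3 DKO libraries. Without MITF, Fam111a stood at 49.4, 46.2 and 54.3 CPM in MITF KO libraries, 46.7, 43.8 and 50 in MITF/TFE3 DKO libraries, 0.627, 1.55 and 1.16 in MITF/TFEB DKO libraries and 0 in all TKO libraries. The 4 lines with MITF, the MITF KO and the MITF/TFE3 DKO lay between 43.8 and 75.0 CPM, the MITF/TFEB DKO between 0.627 and 1.55 CPM, and the TKO held no read. The fall from the MITF KO to the MITF/TFEB DKO was the steepest of the 30 genes (-4.61 ± 0.13 (SE), adjusted p = 1.6e-18), and the MITF/TFE3 DKO differed from the MITF KO by less than its error (-0.09 ± 0.13).

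Prss12 encodes the secreted serine protease neurotrypsin (chromosome 3, 123240470 to 123300398). Prss12 stood at 13.5, 12.6 and 12.2 CPM in parental cells, 12, 13.5 and 12.8 in TFEB KO libraries, 17.6, 17.1 and 13 in TFE3 KO libraries and 13.7, 13.3 and 12.2 in TFEB/TFE3 DKO libraries. Without MITF, Prss12 stood at 13.8, 14.5 and 14.5 CPM in MITF KO libraries, 25.2, 32.8 and 26.1 in MITF/TFE3 DKO libraries, 1.02, 1.3 and 1.23 in MITF/TFEB DKO libraries and 0.219, 0.618 and 0.215 in TKO libraries. The MITF/TFE3 DKO was at 220.2% of the parental mean, above every other library, and the MITF/TFEB DKO at 9.31%. The MITF/TFEB DKO was lower than the MITF KO (-2.81 ± 0.14 (SE), adjusted p = 4.8e-14) and lower than the MITF/TFE3 DKO (-3.73 ± 0.14 (SE), adjusted p = 1.0e-15).

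Usp11 encodes a deubiquitinating enzyme, on chromosome X (20570133 to 20586781). Usp11 stood at 7.72, 10.1 and 7.64 CPM in parental cells, 12.1, 9.69 and 20.1 in TFEB KO libraries, 0.150, 0.0866 and 0.140 in TFE3 KO libraries and 17.6, 11.5 and 18.3 in TFEB/TFE3 DKO libraries. Without MITF, Usp11 stood at 0.330, 0.201 and 0.109 CPM in MITF KO libraries, 0.125, 0.0471 and 0.183 in MITF/TFE3 DKO libraries, 0.314, 0 and 0.119 in MITF/TFEB DKO libraries and 0.109, 0 and 0.215 in TKO libraries. It was absent in the TFE3 KO and in all lines without MITF, at no more than 0.330 CPM in any of those libraries, but was present in the TFEB/TFE3 DKO, which was higher than the TFE3 KO by 3.88 ± 0.20 (SE), adjusted p = 2.8e-12. That was the largest rise of the 30 genes in this contrast.

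Fkbp10 encodes a prolyl isomerase of the endoplasmic reticulum that folds collagen (chromosome 11, 100305808 to 100315669). Fkbp10 stood at 8.46, 6.82 and 9.71 CPM in parental cells, 22.8, 22.2 and 18.3 in TFEB KO libraries, 1.1, 1.34 and 0.513 in TFE3 KO libraries and 23.4, 21.1 and 25 in TFEB/TFE3 DKO libraries. Without MITF, Fkbp10 stood at 0.471, 0 and 0.164 CPM in MITF KO libraries, 0.747, 0.848 and 0.686 in MITF/TFE3 DKO libraries, 0, 0 and 0.0796 in MITF/TFEB DKO libraries and 0.0729, 0 and 0 in TKO libraries. The TFEB KO and TFEB/TFE3 DKO lay above every parental library, and the TFE3 KO below them at 11.8% of the parental mean (3.62 ± 0.17 (SE), adjusted p = 3.4e-13 for the TFEB/TFE3 DKO against the TFE3 KO). The MITF KO differed from the TFEB/TFE3 DKO by -4.33 ± 0.17 (SE), adjusted p = 8.1e-16.

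Ccdc8, a partner of CUL7 in the 3M growth complex (chromosome 7, 16726633 to 16731441), was low in every KO line. Ccdc8 stood at 18.4, 16.8 and 21.3 CPM in parental cells, 1.17, 2.1 and 2.17 in TFEB KO libraries, 0.150, 0 and 0 in TFE3 KO libraries and 2.44, 2.47 and 1.48 in TFEB/TFE3 DKO libraries. Without MITF, Ccdc8 stood at 0.0941, 0.201 and 0.381 CPM in MITF KO libraries, 1.74, 1.04 and 2.01 in MITF/TFE3 DKO libraries, 0.275, 0.126 and 0.279 in MITF/TFEB DKO libraries and 0 in all TKO libraries. No KO library passed 2.47 CPM, and the TFEB/TFE3 DKO, the highest on average, held 11.3% of the parental mean. Between KO lines, the TFE3 KO was lower than the TFEB/TFE3 DKO (1.56 ± 0.18 (SE), adjusted p = 1.1e-06) and the MITF KO lower than the MITF/TFE3 DKO (1.07 ± 0.18 (SE), adjusted p = 6.6e-05).

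The transporter genes were kept in the MITF KO. Slc37a1 encodes a sugar-phosphate exchanger of the endoplasmic reticulum (chromosome 17, 31495739 to 31569713). Slc37a1 stood at 9.1, 10.5 and 11.1 CPM in parental cells, 9.05, 6.54 and 9.53 in TFEB KO libraries, 8.88, 9.91 and 10.2 in TFE3 KO libraries and 13.1, 12.3 and 12.8 in TFEB/TFE3 DKO libraries. Without MITF, Slc37a1 stood at 5.51, 7.35 and 7.74 CPM in MITF KO libraries, 9.3, 11.5 and 9.51 in MITF/TFE3 DKO libraries, 0.863, 1.55 and 1.35 in MITF/TFEB DKO libraries and 0.729, 0.380 and 0.172 in TKO libraries. It lay at 5.51 CPM or above in all lines but the MITF/TFEB DKO and TKO, and its difference from the MITF KO to the MITF/TFEB DKO was -1.80 ± 0.17 (SE), adjusted p = 5.2e-09. Its closest measured neighbour, Wdr4, at a distance of 143583 bases, averaged 52.5 CPM in parental cells and 20.1 CPM in the TKO.

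Slc2a4 encodes the insulin-responsive glucose transporter GLUT4 (chromosome 11, 69831006 to 69839070). Slc2a4 stood at 6.6, 7.5 and 7.91 CPM in parental cells, 13.2, 12.7 and 13.5 in TFEB KO libraries, 5.99, 6.79 and 5.09 in TFE3 KO libraries and 13.6, 14.1 and 16.5 in TFEB/TFE3 DKO libraries. Without MITF, Slc2a4 stood at 8.71, 4.3 and 5.34 CPM in MITF KO libraries, 2.28, 3.39 and 3.43 in MITF/TFE3 DKO libraries, 0.784, 0.966 and 1.03 in MITF/TFEB DKO libraries and 0.255, 0.380 and 0.301 in TKO libraries. The TFEB KO and TFEB/TFE3 DKO lay above all other libraries, the MITF/TFE3 DKO below the MITF KO without a call on the log2(CPM + 1) scale (-0.78 ± 0.17 (SE), adjusted p = 0.0013, means of 3.04 and 6.12 CPM) and the MITF/TFEB DKO lower again (-1.84 ± 0.17 (SE), adjusted p = 7.7e-09 against the MITF KO).

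Mest, an imprinted gene that encodes a hydrolase-like protein of the endoplasmic reticulum, lies at chromosome 6, 30723546 to 30752058, and its promoter with CATGTG is printed above. Mest stood at 5.13, 5.68 and 9.03 CPM in parental cells, 5.59, 11.8 and 6.15 in TFEB KO libraries, 11.4, 22.3 and 18.9 in TFE3 KO libraries and 6.75, 11.4 and 7.05 in TFEB/TFE3 DKO libraries. Without MITF, Mest stood at 1.13, 1.0 and 2.67 CPM in MITF KO libraries, 3.65, 3.63 and 5.39 in MITF/TFE3 DKO libraries, 0.392, 0.252 and 0.677 in MITF/TFEB DKO libraries and 0.510, 0.238 and 0.0860 in TKO libraries. Its replicates spread widely, from 5.59 to 11.8 CPM within the TFEB KO, and the TFE3 KO held 265% of the parental mean. The MITF/TFE3 DKO lay above the MITF KO (1.04 ± 0.28 (SE), adjusted p = 0.0062) and the MITF/TFEB DKO below the MITF/TFE3 DKO (-1.85 ± 0.28 (SE), adjusted p = 1.1e-05).

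The remaining genes were Ksr1, Tmem141 and Defb25. Ksr1 encodes a scaffold for RAF and MEK (chromosome 11, 78904266 to 79037308), and stood at 4.75, 7.32 and 5.17 CPM in parental cells and 0.146, 0.523 and 0.731 CPM in the TKO. It ranged from 0.989 to 2.31 CPM in the MITF KO and MITF/TFE3 DKO, from 0.392 to 0.630 CPM in MITF/TFEB DKO libraries and from 3.58 to 8.78 CPM in the KO lines with MITF (-1.62 ± 0.13 (SE), adjusted p = 1.3e-10). Tmem141, a gene of a small membrane protein (chromosome 2, 25509753 to 25512056), ranged from 4.30 to 8.05 CPM in the KO lines with MITF and from 0 to 0.249 CPM in those without it. Its level in the MITF KO, with 0 reads, was at least 36.4-fold lower than in the TFEB/TFE3 DKO (adjusted p = 8.2e-12). Defb25, a beta-defensin gene (chromosome 2, 152464267 to 152478804), stood at 4.75, 6.28 and 5.66 CPM in parental cells and 0.0364, 0 and 0.0860 CPM in the TKO. Its range was 6.2 to 9.78 CPM in the TFEB KO and TFEB/TFE3 DKO, 1.77 to 3.55 CPM in the TFE3 KO and 0.0545 to 0.754 CPM in the MITF KO and its double KOs (-2.31 ± 0.11 (SE), adjusted p = 1.0e-14).

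Whether loss of TFEB had the same effect in the MITF KO as in the TFE3 KO was tested as a difference of differences, a test added after the values were seen. The sources used here do not say that the TFEB/TFE3 DKO was made from the TFE3 KO. The DKO was called higher and lower for 1.70% and 1.17% of all genes against the TFE3 KO, and for 0.150% and 0.0416% against the TFEB KO. The second step thus also holds any difference particular to the TFE3 KO clone. The step from MITF KO to MITF/TFEB DKO was more negative than the step from TFE3 KO to TFEB/TFE3 DKO for 17 genes (8.0% of all genes) and more positive for 3, Iigp1, Gm4951 and Zbp1 (10.7%). For Fam111a the steps were -4.61 and -0.24 on the log2 scale, and for Ly6g5c -3.16 and 0.77. For Usp11, nearly without reads in the TFE3 KO and in both lines of the first step, the steps were -0.09 and 3.88. Of the 17 genes, 6 (Ccdc8, Usp11, Fkbp10, Pecam1, Nfasc and Defb25) were absent in the MITF KO and had next to no room for a fall in the first step. Tgtp2 gave 0.12 ± 0.35 (SE), adjusted p = 0.79, and was not called. The same test for loss of TFE3, from MITF KO to MITF/TFE3 DKO against TFEB KO to TFEB/TFE3 DKO, called 5 genes as more positive (4.73% of all genes) and 0 as more negative (3.20%), with 1 more negative at an unadjusted p under 0.05 at any fold and 2 by edgeR. These 5 were Iigp1, Gm4951, Tuba4a, F11r and Zbp1, and their number was 3 with a pseudocount of 5, 11 with a pseudocount of 0.25 and 13 with edgeR. For Tuba4a the steps were 0.06 and -3.80 on the log2 scale, and since the MITF KO held 0 reads of it, its first step could not be negative.

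**Figure D5:**
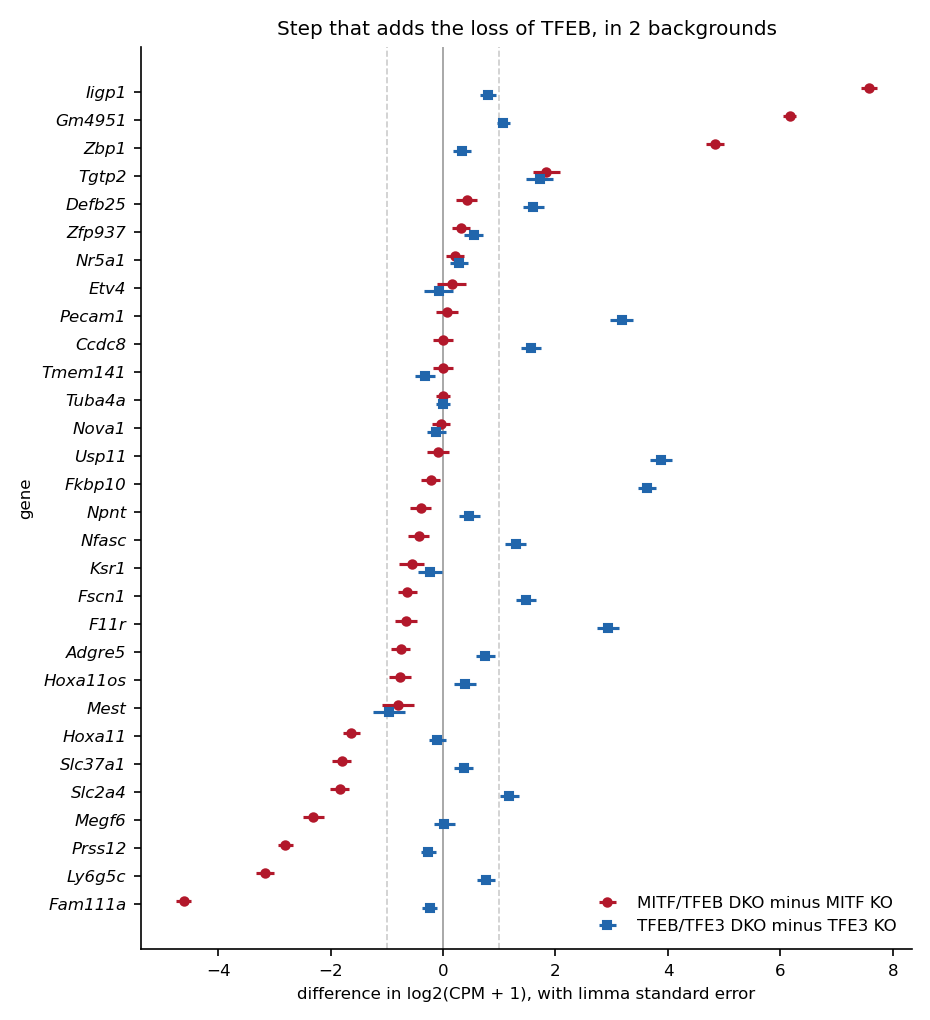
Difference in log2(CPM + 1) with limma's standard error (x axis) for each of the 30 genes (y axis) in 2 steps between lines with and without TFEB, MITF/TFEB DKO minus MITF KO (red circles) and TFEB/TFE3 DKO minus TFE3 KO (blue squares), with dashed lines at a fold of 2. Red points run from 7.58 (Iigp1) to -4.61 (Fam111a), and the blue point lies highest for Usp11 (3.88).

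The genes with a position lay on 14 chromosomes, with more on chromosomes 11 and 2 than on any other. Of the 29 with a position, 6 lay on chromosome 11 and 5 on chromosome 2. These chromosomes held 794 and 749 of the 9135 placed genes with a parental mean of at least 5 CPM. The rest lay on 12 further chromosomes, and whether chromosomes 11 and 2 held more than their share was not tested. Gm4951 had no position, so its neighbours could not be looked for. Among the 29 genes, only Hoxa11 and Hoxa11os were each other's nearest measured gene. The 10 nearest genes on each side with a parental mean of at least 5 CPM had a median log2 ratio of TKO to parental mean between -0.65 (around Nova1) and 0.64 (around F11r), with a median of -0.086 over the 29 genes. For the MITF/TFEB DKO the range was -0.69 (around Slc37a1) to 0.68 (around F11r), with a median of -0.0063. Around Slc37a1 the TKO value was -0.61. Around Nova1 the MITF KO and MITF/TFEB DKO values were -0.57 and -0.61. Whether neighbours moved with the 29 genes was not tested. Some closest neighbours were low in the TKO as well. Ifi47, 12379 bases from Tgtp2, averaged 41.8 CPM in parental cells and 1.10 CPM in the TKO. Lgals9, 28468 bases from Ksr1, averaged 163 and 5.37 CPM, and Pmepa1, 5527 bases from Zbp1, 26.4 and 8.84 CPM. Ddx39a, which overlaps the 3′ end of Adgre5 on the opposite strand, averaged 185 and 70.9 CPM. These were picked for being low. Apart from them, the Hoxa11 pair and Wdr4 (given above), the nearest genes held 67.6% to 158% of their parental mean in the TKO.

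Lists of known functions were set beside the 30 genes. Of the lysosome and autophagy genes known as targets of the MITF family, 32 of 35 were in the table and 0 were among the 30 genes. Lines without MITF held 1 of these 32 higher, where 3.83% of all genes were (Ctsf, a lysosomal protease, 5.11 against 0.655 CPM), and 0 lower (2.28% of all genes) by limma at the call threshold, with a median difference of 0.20 on the log2 scale against 0.011 over all genes. Lamp1 and Atp6v1h differed by 0.84 and 0.64 on that scale, without a call. Of the melanocyte differentiation genes, 19 of 20 were in the table and 0 among the 30, with 4 lower (2.28% of all genes) and 0 higher (3.83%) in the lines without MITF. The 4 were the pigment genes Slc45a2, Tyr and Gpr143 (-1.22, -1.17 and -1.08) and Met (-2.69), a receptor tyrosine kinase that is no pigment gene. In the MITF/TFEB DKO, 8 of the 19 were lower than in the MITF KO (3.99% of all genes) and 12 lower than in the MITF/TFE3 DKO (4.05%). Of the imprinted genes, 17 of 40 were in the table and 1, Mest, among the 30. In the lines without MITF, 3 were higher (Slc22a18, Cdkn1c and Phlda2, by 2.06, 1.93 and 1.86) beside 3.83% of all genes. In the same lines 1, Mest, was lower (-2.08) beside 2.28% of all genes. Of the germline genes silenced by DNA methylation in somatic cells, 6 of 38 were in the table and 0 among the 30. In the lines without MITF 1, Rhox5, was higher (3.98) beside 3.83% of all genes, and 0 were lower (2.28%). Xlr3b, Xlr3a and Brdt differed by 0.21, 0.17 and -0.14.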

How the data were processed

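QuantSeq 3′ libraries (poly(A)-primed, 3 per line, 8 lines) had been trimmed with Trim Galore 0.6.5 and cutadapt 2.10, checked with FastQC 0.11.9 and aligned to mm39 with STAR 2.7.8a, as named in the submitters' processing notes. The counting tool, annotation, strand setting and filter are not given in the sources used here. The deposited values, treated as a signal, were CPM that the authors had normalised with edgeR, and each library summed to 933263 to 1081081 (CPM divided by a scaling factor). All columns of values belonged to samples of the series.

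Whole reads were recovered by dividing each value by the value of 1 read. In the library with the lowest share, 99.98% of values came out whole within 0.02 reads, and libraries held 18300902 to 26667877 reads. An interval or floor covers counting error only.

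Values were taken as log2(CPM + 1) and fitted with limma 3.58.1 in R 4.3.3 with 1 mean per line (16 residual degrees of freedom) over all 12010 genes, with Benjamini-Hochberg adjustment over all of them. The design had assumed plain CPM and the same test was kept. Reads were also tested with edgeR 4.0.16 (quasi-likelihood) as an alternative, together with other pseudocounts, a filter on low values, another scaling, a block for the replicate number, other limits and each replicate left out. The scripts were tested on simulated data. Tables were made in Python 3.11.15 with numpy 2.4.6 and pandas 2.3.3, and plots with matplotlib 3.10.9.

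The genes, the lists and the contrasts were chosen with earlier results of these data known, and the tests of a difference between steps were added after the values were seen. Values of each library are given for the 24 genes with the highest parental mean and for a few below them, with the called genes of the 7 contrasts that had the largest changes in each direction, the nearest genes on either side of each limit, and up to 4 genes of each list with the largest difference between lines without and with MITF. Some genes that this choice named are not reported here. Replicates of 1 line differed by more than counting error, with a chi-square per degree of freedom of at least 4.61.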

Additional observations from a re-analysis of the deposited data

Results flagged for a closer look

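Some of the 30 genes changed differently when the same factor was lost on different backgrounds, which limma tested as a difference of differences on log2(CPM + 1), calling a difference of at least a fold of 2 with p under 0.05. Both comparisons use the MITF KO and the TFEB/TFE3 DKO, so they are not independent of each other.

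For loss of TFEB, the step from MITF KO to MITF/TFEB DKO minus the step from TFE3 KO to TFEB/TFE3 DKO was positive for 3 of the 30 genes, where 10.7% of all genes were called, at 6.78 for Iigp1, 5.09 for Gm4951 and 4.50 for Zbp1. Tgtp2, which interferon also induces, gave 0.12 and was not called. The difference was negative for 17 of the 30 genes, beside 8.0% of all genes. It was negative for the protease genes Fam111a (-4.38) and Prss12 (-2.55), for the transporter genes Slc37a1 (-2.17) and Slc2a4 (-3.02), and for the surface and adhesion genes F11r (-3.60), Ly6g5c (-3.93), Megf6 (-2.33), Pecam1 (-3.10), Adgre5 (-1.51) and Nfasc (-1.72). It was also negative for Fscn1 (-2.11), Ccdc8 (-1.56), Hoxa11 (-1.53), Hoxa11os (-1.16), Usp11 (-3.96), Fkbp10 (-3.85) and Defb25 (-1.19). Of these, Ccdc8, Usp11, Fkbp10, Pecam1, Nfasc and Defb25 were at 0.5 CPM or less in the MITF KO and had next to no room for a fall there.

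For loss of TFE3, the step from MITF KO to MITF/TFE3 DKO minus the step from TFEB KO to TFEB/TFE3 DKO was 6.29 for Iigp1, 4.67 for Gm4951, 3.86 for Tuba4a, 1.58 for F11r and 1.41 for Zbp1, beside 4.73% of all genes called. Tuba4a had 0 reads in the MITF KO, so its level could not fall there, and its value does not show that loss of TFE3 acted differently on the MITF KO and TFEB KO backgrounds. Each step compares single clones, so the background and the clone cannot be told apart. The sources used here do not say whether the TFEB/TFE3 DKO was made from either single KO.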

How the results depend on the processing

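The number of genes that met both limits was 13 with a parental limit of 10 CPM, 75 with a limit of 2 CPM and 30 to 34 with a replicate left out. With a limit of 0.25 CPM, 11 of the 30 were absent in the MITF/TFEB DKO. With a pseudocount of 5, the calls fell to 3 higher in the MITF/TFE3 DKO than in the MITF KO, 4 lower in the MITF/TFEB DKO than in the MITF KO, 6 lower in the MITF/TFEB DKO than in the MITF/TFE3 DKO, 4 higher in the TFEB/TFE3 DKO than in the TFE3 KO and 3 more positive for loss of TFE3, and 1 gene became higher in the lines without MITF. With a pseudocount of 0.25, 12 genes were lower in the MITF/TFEB DKO than in the MITF KO, 1 lower in the TFEB/TFE3 DKO than in the TFE3 KO, and loss of TFE3 was more positive for 11 and more negative for 1. With edgeR, 14 were higher and 2 lower in the MITF/TFE3 DKO than in the MITF KO, 7 higher and 15 lower in the MITF/TFEB DKO than in the MITF KO, 2 higher in the MITF/TFEB DKO than in the MITF/TFE3 DKO, 1 lower in the TFEB/TFE3 DKO than in the TFE3 KO and 1 higher in it than in the TFEB KO. Loss of TFEB was then more positive for 5, and loss of TFE3 more positive for 13 and more negative for 2. With each replicate left out in turn, 0 to 1 were lower in the TFEB/TFE3 DKO than in the TFE3 KO (1 without TFE3 KO replicate 1 or DKO replicate 2), 0 to 1 higher in it than in the TFEB KO (1 without TFEB KO replicate 3 or DKO replicate 1 or 2), and loss of TFE3 was more positive for 5 to 8 (8 without TFEB KO replicate 1) and more negative for 0 to 1 (1 without MITF KO replicate 2 or MITF/TFE3 DKO replicate 2 or 3). Why these counts moved was not tested, and the share of all genes called under these alternatives was not counted. Of 93 calls of a gene in a contrast, 59 held under every alternative, 34 were lost with a pseudocount of 5, 1 with edgeR and at most 4 with any replicate left out, and 0 changed sign. Replicate numbers did not pair the libraries (mean correlation of deviations 0.0222 for the same number and -0.0126 for others), and a fit with the replicate number as a block still called 24 of the 30 genes lower in the MITF KO than in the TFEB/TFE3 DKO and changed no other count by over 1.5 times. Median-of-ratios scaling shifted the median of all genes by at most 0.01.
Few reads limit the low end. At 1 read per 0.0364 to 0.0545 CPM, a gene at 0 in a library could stand at up to 3 reads.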
